A study of Homo sapiens with 12 samples.

Results

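Lysosomes break down proteins, glycans and lipids, and 47 human genes of this organelle were followed in Sk-hep1, an established line of human cells labelled as an endothelial adenocarcinoma of liver and ascites. The genes encode subunits of the lysosomal proton pump (16 genes), cathepsins (9), other hydrolases (16) and membrane proteins with the saposin precursor (6). A gene was followed through the probe set with the highest mean over the 12 arrays among those annotated to that gene alone, and it was kept if that probe set reached 4 on the log2 scale on at least 3 arrays. This left 45 of the 47 genes, among 13130 genes tested on the arrays. ATP6V1F and GLB1 had no probe set annotated to them alone, and every listed gene that had one passed.

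The cells were kept in growth medium (GM, built on DMEM) or in high-fat medium (HFM, built on DMEM/F12) for 12 or 24 hours, with 3 arrays in each of the 4 groups, all from the same line and with no other treatment named in the labels. The study asked how gene expression responds to a fat-rich environment. Which fat was added is not stated in those labels, and since the basal medium changes together with the fat, the effects of the 2 cannot be told apart. Nothing in the labels ties the replicates to separate cultures, so each p-value measures only how far these samples spread, which may be technical. RNA came from whole cultures, so a smaller share of one kind of cell and less RNA per cell cannot be told apart.

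The proton pump, or V-ATPase, uses ATP to drive protons into the lysosome and keeps its interior acidic. Its V1 sector sits in the cytosol and hydrolyses ATP, and its V0 sector lies in the membrane and carries the protons. The acid hydrolases work in the lumen at this low pH: cathepsins cut proteins, glycosidases and sulfatases take glycans apart from their ends, and lipid hydrolases act on sphingolipids presented by saposins. Membrane glycoproteins such as LAMP1 and LAMP2 line the limiting membrane. Many of these genes carry an E-box-like element in their promoters that is bound by TFEB, TFE3 and MITF.

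Values are GCRMA values on the log2 scale, changes are differences of log2 values (HFM minus GM unless stated), and the groups of 3 arrays are compared with limma. A gene is called higher or lower at a Benjamini-Hochberg adjusted p under 0.05 over the 13130 genes, and SE is the standard error of a change with 3 arrays per group.

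Array medians lay between 4.05 and 4.09. One array stands apart from its group: HFM at 12 hours replicate 1. Replicates correlated across genes at r of 0.991 to 0.999 in that group and at 0.998 or 0.999 in the others. On that array, 40 of the 45 members were above both other HFM arrays at 12 hours and 4 were below both. Its median distance from the mean of these 2 arrays was 0.20 over the members and 0.12 over all genes, while the 2 others differed by a median of 0.03 over the members. Its spiked-in hybridisation controls bioB and bioC averaged 9.10, as in GM at 12 hours (9.11 to 9.15), against 8.64 to 8.90 on the remaining 8 arrays. Several results at 12 hours are therefore given with and without it. Some are also given with a term in the model for the bioB and bioC class, chosen after seeing the data, which sets these 4 arrays apart from the 8. The size of that term rests on this 1 HFM array, since every other group lies within 1 class. With the term, the change at 12 hours is that array alone against the mean of GM. The change over time in GM is then shifted by the distance of that array from the 2 other HFM arrays. The 3'-minus-5' difference of ACTB probe sets, a control of RNA integrity, was 1.53 to 1.64 in HFM and 1.02 to 1.12 in GM at 24 hours, and 0.69 to 0.92 in HFM and 0.86 to 0.91 in GM at 12 hours. For GAPDH it was 0.26 to 0.30 in HFM and 0.14 to 0.18 in GM at 24 hours.

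Of 14 endothelial markers, 6 passed the filter, among them ENG and ROBO4, whereas CDH5, VWF and KDR did not. Of 11 hepatocyte markers with a probe set, 5 passed, and ALB and APOA1 did not. Macrophages are rich in lysosomes, and of 11 markers of macrophages and other leukocytes 3 passed (CD14, CORO1A and CD79A), while PTPRC, CSF1R, LYZ and CD163 had means of 2.09, 2.95, 2.20 and 3.00. Linear levels were summed over all markers of a list with a probe set, those that failed the filter included. For the 11 leukocyte markers the sum was 157 to 168 in HFM and 168 to 176 in GM at 24 hours. At 12 hours it was 176 to 190 in HFM and 232 to 243 in GM. The sum of the 14 endothelial markers was also lower in HFM, at 319 to 344 against 390 to 417 at 24 hours. At 12 hours it was 373 to 420 against 541 to 557. Of the 6 that passed, 3 were called lower at 24 hours and 4 at 12 hours, 0 higher at either. The sum of the 11 hepatocyte markers was 210 to 216 in HFM and 190 to 196 in GM at 24 hours. At 12 hours it was 194 to 195 in HFM and 205 to 208 in GM. At 24 hours SERPINA1 (0.54) and TTR (0.22) of these were called higher and 0 lower. The part of these shifts in the results below was not tested.

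At 24 hours most of the degradative enzymes were higher in HFM than in GM, and the proton pump genes were higher about as often as all genes. Of 45 members, 28 were higher and 9 lower (62.2% and 20.0%), against 20.6% higher, 37.5% lower and 58.1% in either direction over all genes tested. The higher genes included 7 of 9 cathepsins, 13 of 15 other hydrolases and 5 of 6 membrane proteins with PSAP. Of the 15 pump genes 3 were higher and 7 lower (20.0% and 46.7%). The median change was 0.40 for cathepsins, 0.49 for the other hydrolases, 0.53 for membrane proteins with PSAP and -0.12 for the pump, against -0.08 over all genes. The values of the 2 groups did not overlap for 39 members, or 86.7%, against 68.7% of all genes. No test between the classes was made. Most of these changes were small: with a minimum of 1.5-fold beside the adjusted p, 6 members were higher (CTSH, IDS, SMPD1, LAMP2, SCARB2 and PSAP) and 4 lower (ATP6V0B, ATP6V0D1, ATP6V1C1 and ARSB), or 13.3% and 8.89%, against 7.02% and 15.0% of all genes. Only 1 of the 9 cathepsins and 2 of the 15 other hydrolases were among the higher. The HFM arrays of this time are also those with the larger 3'-minus-5' differences, whose part in these results was not tested.

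At 12 hours these classes did not share a direction. Of 45 members, 11 were higher in HFM and 16 lower (24.4% and 35.6%), near the 28.9% higher and 33.0% lower (61.9% in either direction) among all genes. The groups did not overlap for 24 members, against 63.6% of all genes. The pump divided by sector: 5 of 7 V1 genes were higher and 0 lower, and 5 of 6 V0 genes were lower and 0 higher. Without HFM replicate 1 of that time, 12 members were called higher and 25 lower, and 30.1% and 38.2% of all genes. The added calls included CTSD, CTSH, MAN2B1, SMPD1, TPP1 and PSAP, all lower, and ATP6AP2, higher. The V1 count without that array was again 5 higher and 0 lower, and the V0 count became 6 lower and 0 higher. With the bioB and bioC class term the change at 12 hours is that of HFM replicate 1 alone against GM, so the term cannot check this balance. The median of the members then moved from -0.11 to 0.04. The sectors of the pump kept their directions on that array. Relative to each gene's mean over the 12 arrays, the median of V1 was 0.32 on it and -0.24 to -0.20 in GM. That of V0 was 0.10 on it and 0.31 to 0.34 in GM.

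The balance of the background depends on the scaling of the arrays. Of all genes called at 24 hours, 35.4% were higher as deposited, 58.6% with each array centred on the median of its tested genes and 49.1% after a repeated quantile normalization, and the median change of all genes moved from -0.08 to 0.10 and 0.02. With centred arrays, 32 members were higher and 7 lower at 24 hours, against 37.0% and 26.2% of all genes, and cathepsins (7 higher, 0 lower), other hydrolases (14 and 1) and membrane proteins with PSAP (5 and 1) had the same direction as before. The pump did not: 6 of its genes were then higher and 5 lower, with 3 higher and 2 lower in V1, against 1 and 4 as deposited. After the quantile normalization the members were 30 higher and 9 lower, against 29.8% and 30.9% of all genes.

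**Figure D1:**
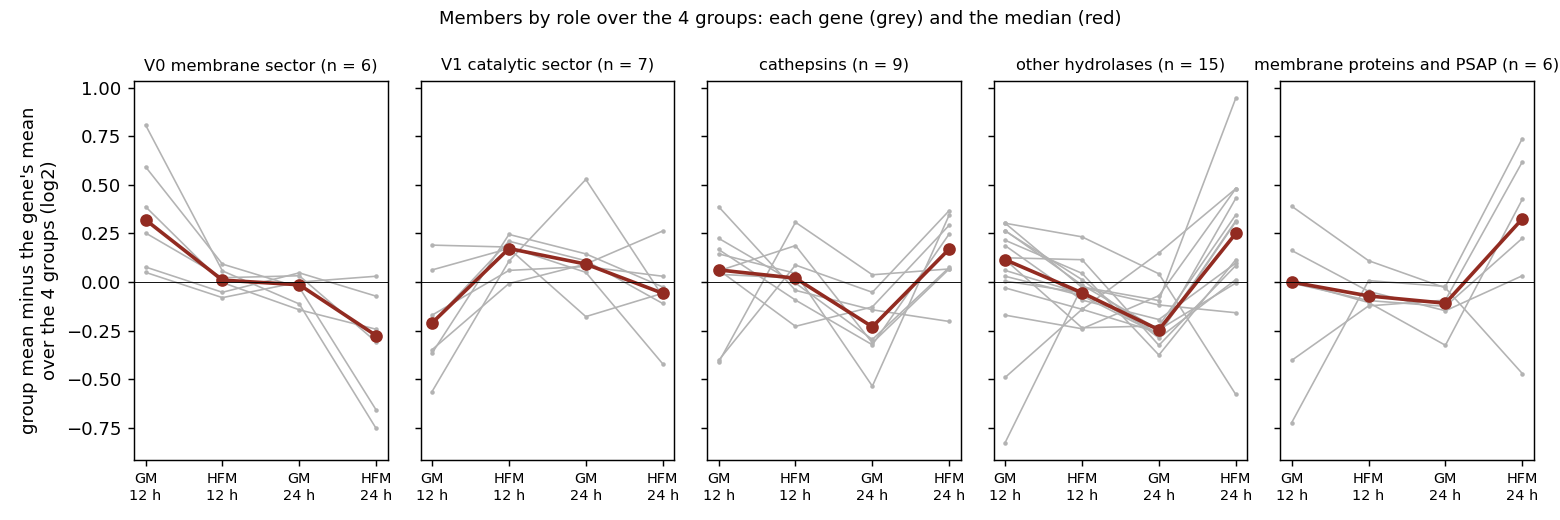
Group means of members, the 2 accessory subunits left out, minus each gene's mean over the 4 groups (log2 units, vertical axis) in GM and HFM at 12 and 24 hours, with 1 panel per role, a grey line per gene and the median in red. The medians of cathepsins (9 genes), other hydrolases (15) and membrane proteins with PSAP (6) are lowest in GM at 24 hours and highest in HFM at 24 hours, V0 (6 genes) is highest in GM at 12 hours and lowest in HFM at 24 hours, and V1 (7 genes) is lowest in GM at 12 hours.

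Promoter windows from RefSeq (GRCh38.p14, 250 bases before to 50 after the start site) were found for 32 of the 47 listed genes. The letters CACGTG, the core of the element bound by TFEB and its relatives, occurred in 12 of these 32 windows and in 7.26% of 35116 windows of the same length. CACGTG reads the same on both strands. The longer TCACGTGA, which contains it, occurred in 6 windows (ATP6V0D1, ATP6V1G1, CTSA, GAA, LAMP1 and MCOLN1) and in 0.98% of all windows, and GTCACGTGAC, which contains both, in those of ATP6V1G1, GAA and MCOLN1 and in 0.353% of all windows. Stretches of 8 windows follow, chosen because genes that carry the same letters were higher, lower or not called in HFM, written 5′ to 3′ along the gene with CACGTG in capitals.
GAA, chr17:80101501-80101580, plus strand: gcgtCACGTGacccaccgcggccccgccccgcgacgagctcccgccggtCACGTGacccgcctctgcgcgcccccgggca
CTSA, chr20:45891255-45891334, plus strand: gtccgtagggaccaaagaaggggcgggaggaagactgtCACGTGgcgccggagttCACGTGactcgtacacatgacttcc
LAMP1, chr13:113297039-113297229, plus strand: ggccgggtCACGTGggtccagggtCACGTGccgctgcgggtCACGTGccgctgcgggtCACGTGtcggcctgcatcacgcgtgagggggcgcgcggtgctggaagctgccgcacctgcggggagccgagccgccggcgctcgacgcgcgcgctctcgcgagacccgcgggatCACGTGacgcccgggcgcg
NEU1, chr6:31862892-31862971, minus strand: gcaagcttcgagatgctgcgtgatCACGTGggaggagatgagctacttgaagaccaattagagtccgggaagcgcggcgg
ATP6V1G1, chr9:114587689-114587768, plus strand: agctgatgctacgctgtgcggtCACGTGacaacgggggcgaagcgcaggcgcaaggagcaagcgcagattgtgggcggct
MCOLN1, chr19:7522544-7522623, plus strand: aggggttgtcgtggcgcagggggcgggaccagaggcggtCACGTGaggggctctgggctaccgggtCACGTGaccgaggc
ATP6V0D1, chr16:67481158-67481237, minus strand: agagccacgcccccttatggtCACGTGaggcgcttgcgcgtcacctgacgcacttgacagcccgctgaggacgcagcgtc
ATP6V0B, chr1:43974880-43974959, plus strand: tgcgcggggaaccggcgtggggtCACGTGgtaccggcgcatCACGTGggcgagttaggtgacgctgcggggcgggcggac
The stretch of LAMP1 ends 10 bases before its start site, that of NEU1 ends 71 bases before it, and the others end at the base before it.

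Genes with CACGTG moved both ways. At 24 hours GAA (0.58), CTSA (0.57), LAMP1 (0.35) and NEU1 (0.57) were higher in HFM, MCOLN1 (-0.44), ATP6V0D1 (-0.63) and ATP6V0B (-0.64) were lower, and ATP6V1G1 (-0.05) was not called. Of the 12 members with CACGTG in the window, 6 were higher and 4 lower at 24 hours, and of the 18 tested members whose window lacks it, 12 were higher and 2 lower. At 12 hours the counts were 1 higher and 7 lower with it, and 4 higher and 6 lower without it. Of all genes tested, 20.6% were higher and 37.5% lower at 24 hours, and 28.9% and 33.0% at 12 hours. Calls were not counted over all genes that carry these letters. A match describes the letters in the window and shows no binding.

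Of 6 V0 genes, 5 were lower in HFM at 12 hours and 3 at 24 hours, and 0 were higher at either time (1 at 24 hours with centred arrays). Of all genes, 33.0% were lower at 12 hours and 37.5% at 24 hours. The shares higher were 28.9% and 20.6% (37.0% at 24 hours with centred arrays). ATP6V0B, which encodes the c'' proteolipid of the proton-carrying ring, measured 10.86, 10.86 and 10.91 in GM and 10.30, 10.02 and 10.04 in HFM at 12 hours, and 9.98, 9.99 and 9.88 in GM and 9.33, 9.30 and 9.30 in HFM at 24 hours. The 3 HFM arrays were below the 3 GM arrays at both times, and HFM at 24 hours was lowest. The change was -0.76 ± 0.07 (SE, adjusted p = 3.7e-06) at 12 hours and -0.64 ± 0.07 (SE, adjusted p = 8.7e-06) at 24 hours. ATP6V0D1, the d subunit that joins the ring to the central stalk, measured 11.11, 11.13 and 11.11 in GM and 10.71, 10.58 and 10.56 in HFM at 12 hours, and 10.55, 10.52 and 10.45 in GM and 9.90, 9.87 and 9.84 in HFM at 24 hours. Its groups were also apart at both times, with changes of -0.50 ± 0.05 (SE, adjusted p = 1.0e-05) and -0.63 ± 0.05 (SE, adjusted p = 8.3e-07). ATP6V0E1, a small membrane subunit, was lower at both times (-0.24 and -0.34). ATP6V0C, the main proteolipid of the ring, was lower at 12 hours (-0.39) and was not called at 24 hours (-0.10).

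The a subunits form the proton channel beside the ring. ATP6V0A2 measured 5.82, 5.88 and 5.83 in GM and 5.77, 5.68 and 5.67 in HFM at 12 hours, and 5.80, 5.88 and 5.75 in GM and 5.65, 5.74 and 5.69 in HFM at 24 hours. The groups did not overlap at either time, but the changes were small, at -0.14 ± 0.05 (SE, adjusted p = 0.041) and -0.12 ± 0.05 (SE, adjusted p = 0.081). Its direction at 12 hours depends on the probe set, since the mean of its probe sets changed by 0.12 and another probe set rose by 0.80. ATP6V0A1 was not called at either time (-0.14 and 0.03), and it was lower at 12 hours without HFM replicate 1, with a change of -0.22 ± 0.04 (SE, adjusted p = 0.0015).

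Of 7 V1 genes, 5 were higher in HFM and 0 lower at 12 hours, and 1 was higher and 4 lower at 24 hours (3 and 2 with centred arrays). The shares of all genes were 28.9% and 33.0% at 12 hours, and 20.6% and 37.5% at 24 hours (37.0% and 26.2% with centred arrays). ATP6V1C1, the C subunit that holds V1 to V0, measured 8.11, 8.10 and 8.14 in GM and 8.84, 8.78 and 8.75 in HFM at 12 hours, and 9.20, 9.22 and 9.22 in GM and 8.66, 8.57 and 8.60 in HFM at 24 hours. No arrays overlapped at either time, and GM at 24 hours was the highest group and GM at 12 hours the lowest. The change was 0.67 ± 0.05 (SE, adjusted p = 4.0e-07) at 12 hours and -0.60 ± 0.05 (SE, adjusted p = 4.2e-07) at 24 hours, and their difference of -1.28 ± 0.07 (SE, adjusted p = 4.9e-08) was the largest among the members. ATP6V1D, a part of the rotating central stalk, measured 9.87, 9.84 and 9.86 in GM and 10.56, 10.39 and 10.44 in HFM at 12 hours, and 10.41, 10.37 and 10.31 in GM and 10.23, 10.14 and 10.22 in HFM at 24 hours. HFM was above GM on all arrays at 12 hours and below it at 24 hours, with changes of 0.61 ± 0.06 (SE, adjusted p = 3.2e-06) and -0.17 ± 0.06 (SE, adjusted p = 0.02), and the latter was 0.01 and not called with centred arrays.

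The remaining V1 genes followed in part. ATP6V1A, the catalytic A subunit, measured 10.07, 9.96 and 9.94 in GM and 10.30, 10.33 and 10.35 in HFM at 12 hours, and 10.46, 10.42 and 10.41 in GM and 10.58, 10.61 and 10.62 in HFM at 24 hours. HFM exceeded GM on all arrays at each time, by 0.34 ± 0.05 (SE, adjusted p = 1.1e-04) and 0.17 ± 0.05 (SE, adjusted p = 0.0095). ATP6V1E1, a peripheral stalk subunit, had changes of 0.42 at 12 hours and -0.21 at 24 hours, both called, and the latter was not called with centred arrays. ATP6V1G1, another stalk subunit, was higher at 12 hours (0.24), and ATP6V1H, the regulatory H subunit, was lower at 24 hours (-0.47). ATP6V1B2, the nucleotide-binding B subunit, was not called at either time (0.11 and 0.12).

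Both accessory subunits were higher in HFM at 24 hours. ATP6AP2, the prorenin receptor, which assists pump assembly, measured 11.32, 11.27 and 11.23 in GM and 11.21, 11.64 and 11.66 in HFM at 12 hours, and 11.56, 11.68 and 11.75 in GM and 12.16, 12.20 and 12.17 in HFM at 24 hours. At 24 hours the HFM arrays were the 3 highest of all 12, and the change was 0.51 ± 0.10 (SE, adjusted p = 0.001). At 12 hours HFM replicate 1 lay below all 3 GM arrays while the others lay above them, and the change of 0.23 ± 0.10 (SE, adjusted p = 0.072) became 0.38 ± 0.06 (SE, adjusted p = 1.5e-04) without that array. Another probe set of ATP6AP2 was called higher with all arrays at 12 hours (0.51 ± 0.05, SE) and at 24 hours (0.31 ± 0.05, SE). The difference between times was called for that probe set, at -0.20. ATP6AP1, an assembly factor with a large luminal domain, measured 9.77, 9.83 and 9.85 in GM and 9.76, 9.61 and 9.57 in HFM at 12 hours, and 9.52, 9.48 and 9.38 in GM and 9.74, 9.62 and 9.65 in HFM at 24 hours. HFM was above GM on all arrays at 24 hours, by 0.21 ± 0.06 (SE, adjusted p = 0.013), and at 12 hours it was below GM, with a change of -0.17 ± 0.06 (SE, adjusted p = 0.036) and replicate 1 of HFM next to the lowest GM array.

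**Figure D2:**
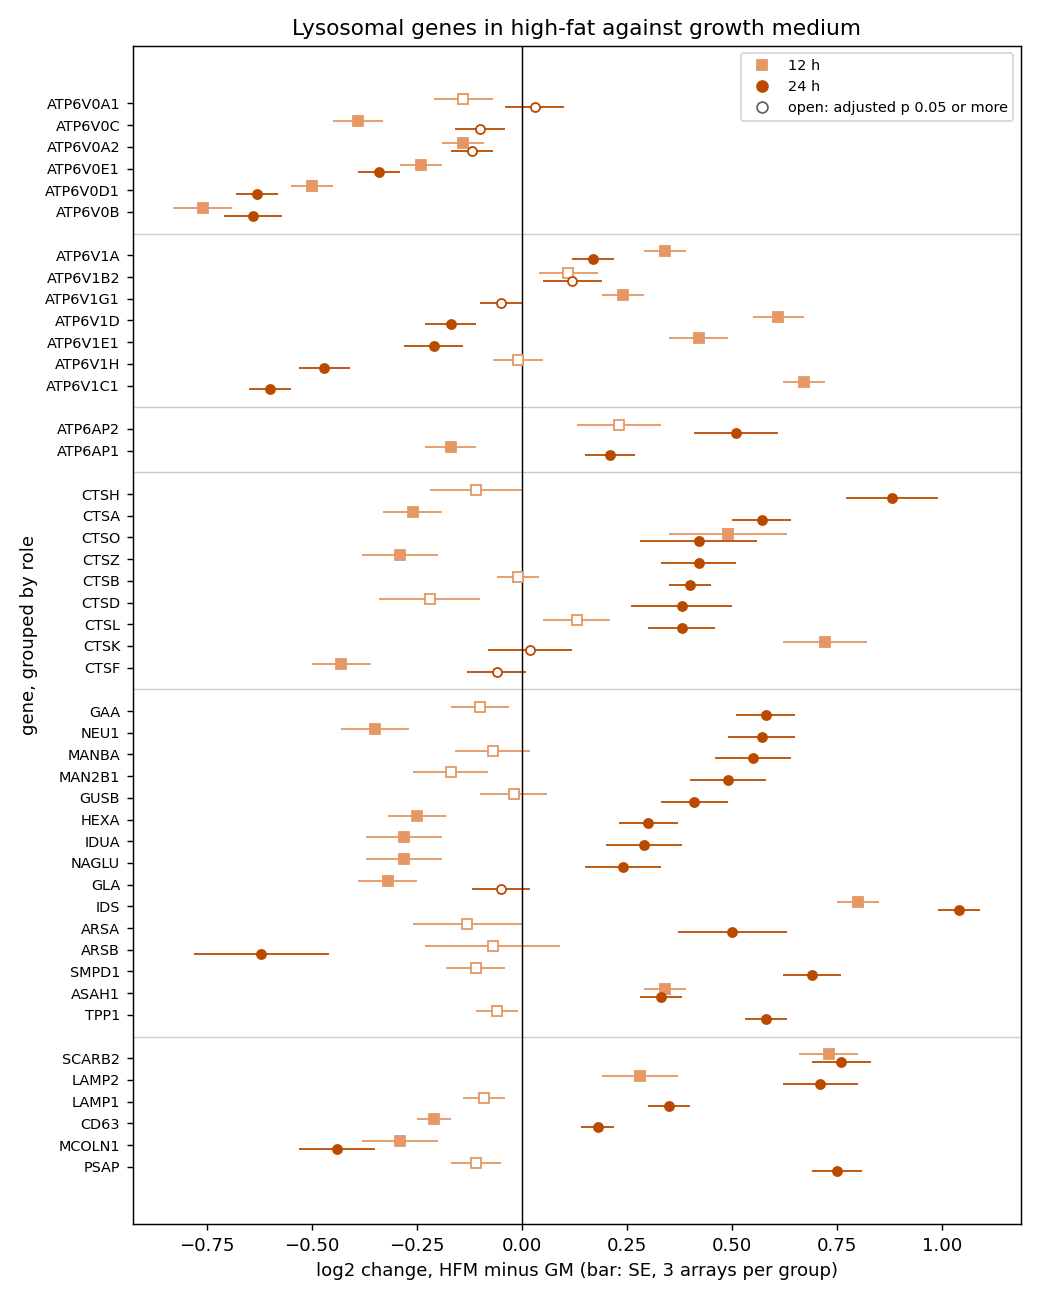
Log2 change of HFM against GM (horizontal axis, bars are SE with 3 arrays per group) for each of the 45 members, grouped from the top as V0, V1, accessory subunits, cathepsins, other hydrolases, and membrane proteins with PSAP, with squares for 12 hours, circles for 24 hours and open symbols for an adjusted p of 0.05 or more. At 24 hours most cathepsins and hydrolases lie right of 0, with IDS farthest at 1.04, and V0 genes lie near it or to its left, down to -0.64 for ATP6V0B.

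Among the cathepsins the largest rise at 24 hours was that of CTSH, a cysteine protease with aminopeptidase activity. It measured 7.13, 7.01 and 7.05 in GM and 7.29, 6.79 and 6.78 in HFM at 12 hours, and 6.44, 6.35 and 6.34 in GM and 7.32, 7.24 and 7.21 in HFM at 24 hours. At 24 hours the lowest HFM array was above the highest GM array, and the change was 0.88 ± 0.11 (SE, adjusted p = 2.9e-05). At 12 hours replicate 1 of HFM was the highest of 6 arrays and the others were the lowest, and the change of -0.11 ± 0.11 (SE, adjusted p = 0.42) became -0.28 ± 0.05 (SE, adjusted p = 8.5e-04) without it. CTSA, a serine carboxypeptidase that also protects NEU1, measured 9.69, 9.60 and 9.72 in GM and 9.55, 9.36 and 9.32 in HFM at 12 hours, and 9.28, 9.18 and 9.09 in GM and 9.79, 9.71 and 9.75 in HFM at 24 hours. HFM was below GM on all arrays at 12 hours and above it at 24 hours, with changes of -0.26 ± 0.07 (SE, adjusted p = 0.0072) and 0.57 ± 0.07 (SE, adjusted p = 2.2e-05).

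CTSZ, a carboxypeptidase of the cysteine protease family, measured 7.31, 7.38 and 7.46 in GM and 7.31, 6.99 and 6.99 in HFM at 12 hours, and 7.22, 7.22 and 7.11 in GM and 7.69, 7.61 and 7.53 in HFM at 24 hours. It was higher in HFM at 24 hours on all arrays, by 0.42 ± 0.09 (SE, adjusted p = 0.001), and lower at 12 hours, with a change of -0.29 ± 0.09 (SE, adjusted p = 0.012), where replicate 1 of HFM reached the lowest GM array. CTSO, a cysteine protease of low signal on these arrays, measured 3.76, 4.39 and 4.02 in GM and 4.77, 4.37 and 4.52 in HFM at 12 hours, and 4.43, 4.40 and 4.39 in GM and 4.79, 4.76 and 4.93 in HFM at 24 hours. Its change was 0.49 ± 0.14 (SE, adjusted p = 0.0091) at 12 hours, where the groups overlapped, and 0.42 ± 0.14 (SE, adjusted p = 0.02) at 24 hours, where they did not.

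CTSK and CTSF were called at 12 hours and not at 24 hours, and the difference between the times was itself called for each. CTSK, a collagen-degrading protease best known from osteoclasts, measured 4.41, 4.39 and 4.32 in GM and 5.31, 5.12 and 4.87 in HFM at 12 hours, and 4.96, 4.88 and 4.67 in GM and 4.84, 4.83 and 4.89 in HFM at 24 hours. All HFM arrays exceeded all GM arrays at 12 hours, by 0.72 ± 0.10 (SE, adjusted p = 9.1e-05), and the groups overlapped at 24 hours, with a change of 0.02 ± 0.10 (SE, adjusted p = 0.87). CTSF, another cysteine protease, measured 7.55, 7.47 and 7.44 in GM and 7.15, 7.01 and 7.00 in HFM at 12 hours, and 6.97, 6.89 and 6.98 in GM and 7.02, 6.73 and 6.91 in HFM at 24 hours. It was lower in HFM on all arrays at 12 hours, with a change of -0.43 ± 0.07 (SE, adjusted p = 4.1e-04), and overlapped at 24 hours, with a difference of -0.06 ± 0.07 (SE, adjusted p = 0.54). The difference between times was -0.70 ± 0.14 (SE, adjusted p = 0.0016) for CTSK and 0.37 ± 0.10 (SE, adjusted p = 0.011) for CTSF.

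The widely expressed endoproteases CTSB, CTSD and CTSL were not called at 12 hours and were higher at 24 hours, by 0.40, 0.38 and 0.38. CTSD, the main aspartic protease of lysosomes, was called lower at 12 hours once HFM replicate 1 was left out, with a change of -0.40 ± 0.07 (SE, adjusted p = 6.6e-04).

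Enzymes that act on sugar chains were mostly higher at 24 hours. Of 9 tested, 8 were higher in HFM at 24 hours and 0 lower, with a median of 0.41, against 20.6% and 37.5% of all genes. At 12 hours 0 were higher and 5 lower, with a median of -0.25, against 28.9% and 33.0% of all genes. Without HFM replicate 1, 7 were lower at 12 hours, against 38.2% of all genes. With the bioB and bioC class term, which sets replicate 1 alone against GM at that time, the median was -0.09. NEU1, the sialidase that removes terminal sialic acid, measured 7.80, 7.94 and 7.82 in GM and 7.72, 7.36 and 7.42 in HFM at 12 hours, and 7.58, 7.50 and 7.46 in GM and 8.10, 8.07 and 8.08 in HFM at 24 hours. The HFM arrays were the 3 lowest of 6 at 12 hours and the 3 highest of all 12 at 24 hours. The change was -0.35 ± 0.08 (SE, adjusted p = 0.0038) and then 0.57 ± 0.08 (SE, adjusted p = 9.8e-05). GLA, the alpha-galactosidase that is deficient in Fabry disease, was the exception at 24 hours and measured 9.01, 9.06 and 9.07 in GM and 8.91, 8.67 and 8.60 in HFM at 12 hours, and 8.67, 8.67 and 8.57 in GM and 8.61, 8.58 and 8.57 in HFM at 24 hours. Its groups overlapped at 24 hours, with a change of -0.05 ± 0.07 (SE, adjusted p = 0.59), and were apart at 12 hours, with -0.32 ± 0.07 (SE, adjusted p = 0.0023). With centred arrays it was called higher at 24 hours, by 0.13.

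The other glycosidases rose at 24 hours in a narrow range. GAA, which degrades glycogen, changed by 0.58 ± 0.07 (SE, adjusted p = 1.1e-05) and MANBA, a beta-mannosidase, by 0.55 ± 0.09 (SE, adjusted p = 2.4e-04). MAN2B1, an alpha-mannosidase, changed by 0.49 and GUSB, the beta-glucuronidase, by 0.41. HEXA, the alpha chain of beta-hexosaminidase, IDUA, the iduronidase, and NAGLU, which trims heparan sulfate, were higher by 0.30, 0.29 and 0.24, and each had been lower at 12 hours, with changes of -0.25, -0.28 and -0.28.

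IDS, the sulfatase that starts the breakdown of heparan and dermatan sulfate, had the largest rise of all members at both times. It measured 8.46, 8.36 and 8.42 in GM and 9.22, 9.17 and 9.23 in HFM at 12 hours, and 9.19, 9.11 and 9.11 in GM and 10.18, 10.17 and 10.18 in HFM at 24 hours. HFM was above GM on all arrays at each time, and HFM at 12 hours and GM at 24 hours lay at similar levels. The change was 0.80 ± 0.05 (SE, adjusted p = 1.6e-07) at 12 hours and 1.04 ± 0.05 (SE, adjusted p = 5.4e-09) at 24 hours, or 2.05-fold. The probe set that stands for IDS is of a type that can match several transcripts. ARSB, which removes sulfate from dermatan and chondroitin sulfate, was the one hydrolase called lower at 24 hours. It measured 5.63, 5.36 and 5.47 in GM and 5.18, 5.37 and 5.71 in HFM at 12 hours, and 5.25, 5.26 and 5.18 in GM and 4.29, 4.61 and 4.93 in HFM at 24 hours. All HFM arrays were below all GM arrays at 24 hours, with a wide spread among them, and the change was -0.62 ± 0.16 (SE, adjusted p = 0.0045). These HFM values lie close to the filter level of 4, and the probe set is of a type that can match several transcripts. The other passing probe sets of ARSB were not called at 24 hours (-0.39 and -0.15). At 12 hours the groups overlapped and the change was -0.07 ± 0.16 (SE, adjusted p = 0.72). ARSA, which acts on sulfatides, was higher at 24 hours (0.50).

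Both sphingolipid hydrolases and the peptidase TPP1 were higher at 24 hours. SMPD1, the acid sphingomyelinase, measured 7.27, 7.22 and 7.20 in GM and 7.29, 7.01 and 7.06 in HFM at 12 hours, and 7.04, 7.07 and 6.90 in GM and 7.70, 7.73 and 7.64 in HFM at 24 hours. The 3 HFM arrays at 24 hours were the highest of the 12, and the change was 0.69 ± 0.07 (SE, adjusted p = 6.7e-06). Its other passing probe sets, of lower signal, were not called at that time (0.09 and 0.04). At 12 hours HFM replicate 1 lay above all GM arrays and the others below, and the change of -0.11 ± 0.07 (SE, adjusted p = 0.21) became -0.19 ± 0.05 (SE, adjusted p = 0.009) without it. ASAH1, the acid ceramidase, which takes the product of SMPD1 further, measured 9.20, 9.09 and 9.18 in GM and 9.57, 9.44 and 9.48 in HFM at 12 hours, and 9.82, 9.77 and 9.78 in GM and 10.17, 10.09 and 10.10 in HFM at 24 hours. It was higher in HFM on all arrays at both times, by 0.34 ± 0.05 (SE, adjusted p = 1.6e-04) and 0.33 ± 0.05 (SE, adjusted p = 1.6e-04). Other probe sets of ASAH1 were called higher at 24 hours (0.39 and 0.79) or not called (-0.02). The probe sets that stand for SMPD1 and ASAH1 are of types that can match several transcripts. TPP1, which removes tripeptides from protein ends, measured 9.07, 9.04 and 9.08 in GM and 9.12, 8.96 and 8.94 in HFM at 12 hours, and 8.79, 8.80 and 8.82 in GM and 9.39, 9.40 and 9.35 in HFM at 24 hours. Its HFM arrays at 24 hours exceeded all others, with a change of 0.58 ± 0.05 (SE, adjusted p = 1.8e-06), and the groups overlapped at 12 hours, with -0.06 ± 0.05 (SE, adjusted p = 0.33).

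**Figure D3:**
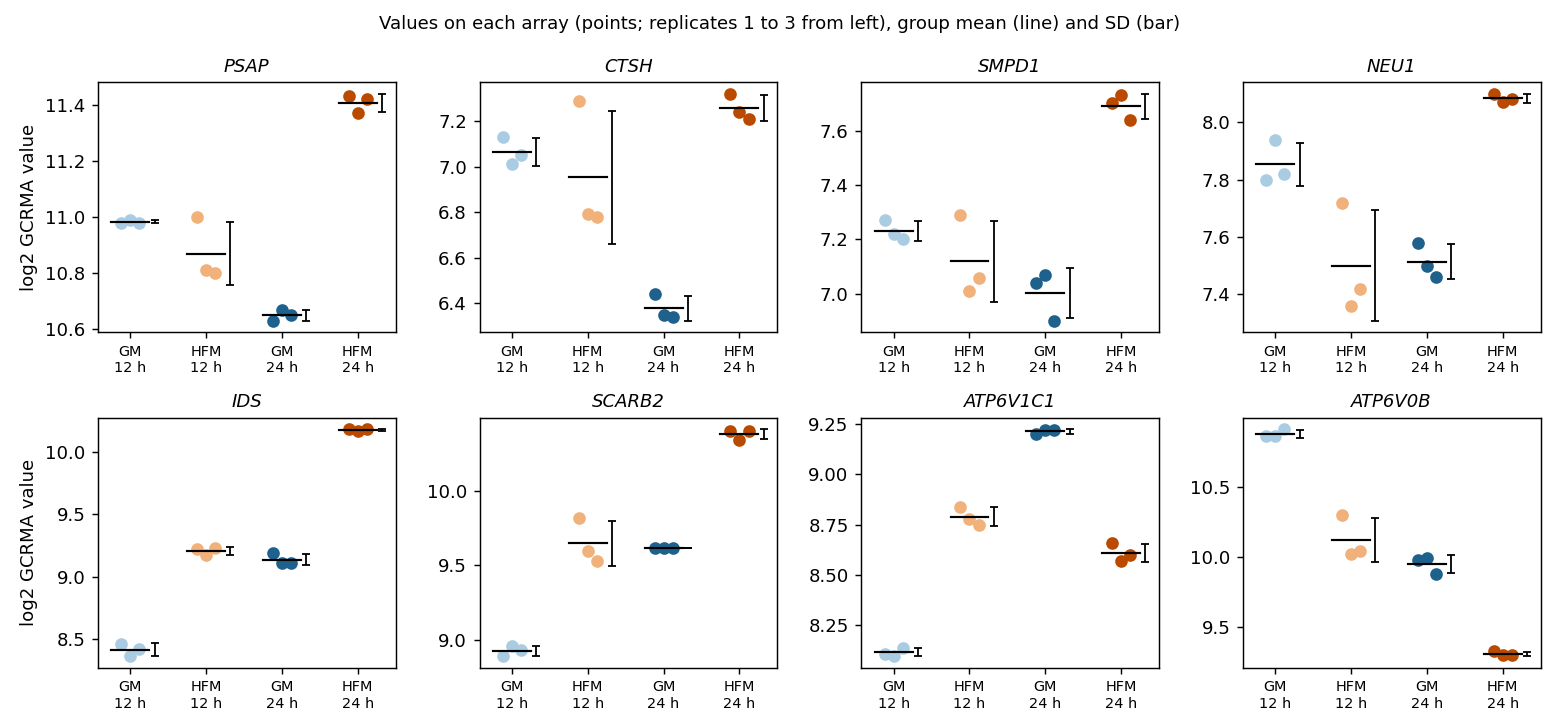
Log2 GCRMA values (vertical axis, with a range of its own in each panel) of 8 members on each of the 12 arrays, as points for replicates 1 to 3 from left to right, with the group mean as a line and the SD (n = 3) as a bar. PSAP, CTSH, SMPD1 and NEU1 are highest in HFM at 24 hours, IDS and SCARB2 are higher in HFM at both times, ATP6V1C1 is higher at 12 and lower at 24 hours, and ATP6V0B is lower at both.

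PSAP, whose product is cut into the saposins that lift sphingolipids out of membranes for their hydrolases, measured 10.98, 10.99 and 10.98 in GM and 11.00, 10.81 and 10.80 in HFM at 12 hours, and 10.63, 10.67 and 10.65 in GM and 11.43, 11.37 and 11.42 in HFM at 24 hours. The HFM arrays at 24 hours were the highest of the 12 and the GM arrays of that time the lowest, and the change was 0.75 ± 0.06 (SE, adjusted p = 3.7e-07). At 12 hours HFM replicate 1 was above the GM arrays and the others below, and the change of -0.11 ± 0.06 (SE, adjusted p = 0.11) became -0.18 ± 0.04 (SE, adjusted p = 0.0011) without it.

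The integral membrane proteins were less uniform. SCARB2, known as LIMP-2, the receptor that carries glucocerebrosidase to the lysosome, measured 8.89, 8.96 and 8.93 in GM and 9.82, 9.60 and 9.53 in HFM at 12 hours, and 9.62, 9.62 and 9.62 in GM and 10.40, 10.34 and 10.40 in HFM at 24 hours. It was higher in HFM on all arrays at each time, by 0.73 ± 0.07 (SE, adjusted p = 3.7e-06) and 0.76 ± 0.07 (SE, adjusted p = 1.4e-06). LAMP2, a major membrane glycoprotein with a role in chaperone-mediated autophagy, measured 10.28, 10.24 and 10.14 in GM and 10.27, 10.65 and 10.58 in HFM at 12 hours, and 10.48, 10.54 and 10.58 in GM and 11.21, 11.34 and 11.18 in HFM at 24 hours. At 24 hours the HFM arrays were the highest of the 12, by 0.71 ± 0.09 (SE, adjusted p = 2.8e-05). At 12 hours replicate 1 of HFM lay among the GM arrays and the others above them, with a change of 0.28 ± 0.09 (SE, adjusted p = 0.019), or 0.40 ± 0.06 (SE, adjusted p = 1.9e-04) without it. With centred arrays the change at 12 hours was not called.

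LAMP1, the other abundant membrane glycoprotein, measured 12.23, 12.19 and 12.25 in GM and 12.21, 12.10 and 12.09 in HFM at 12 hours, and 12.11, 12.07 and 12.11 in GM and 12.48, 12.43 and 12.43 in HFM at 24 hours. HFM was above GM on all arrays at 24 hours, by 0.35 ± 0.05 (SE, adjusted p = 6.0e-05), and overlapped at 12 hours, with a change of -0.09 ± 0.05 (SE, adjusted p = 0.12). Without HFM replicate 1 the change at 12 hours was -0.13 ± 0.04 (SE, adjusted p = 0.0081). Another probe set of LAMP1 was called lower at 12 hours with all arrays (-0.21). CD63, a tetraspanin of late endosomes and lysosomes, measured 12.17, 12.18 and 12.13 in GM and 11.97, 11.91 and 11.97 in HFM at 12 hours, and 11.86, 11.82 and 11.87 in GM and 12.04, 12.01 and 12.04 in HFM at 24 hours. It was lower in HFM on all arrays at 12 hours and higher at 24 hours, with changes of -0.21 ± 0.04 (SE, adjusted p = 0.0013) and 0.18 ± 0.04 (SE, adjusted p = 0.0034). MCOLN1, a calcium channel of the lysosomal membrane, was the only member of this class called lower at 24 hours and measured 6.63, 6.69 and 6.71 in GM and 6.63, 6.18 and 6.34 in HFM at 12 hours, and 6.27, 6.21 and 6.26 in GM and 5.75, 5.80 and 5.88 in HFM at 24 hours. The change was -0.44 ± 0.09 (SE, adjusted p = 0.0015), and -0.29 ± 0.09 (SE, adjusted p = 0.018) at 12 hours, where HFM replicate 1 reached the lowest GM array.

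The change with medium itself differed between the times for 31 of 45 members. It was more positive at 24 hours for 25 (55.6%) and more negative for 6 (13.3%), against 19.4% and 33.4% of all genes, or 52.8% in either direction. With centred arrays, 61.8% of all genes called for this difference were more positive at 24 hours, against 36.8% as deposited and 51.0% after the quantile normalization. All 9 glycosidases were called more positive (8 with the bioB and bioC class term), as were 6 of 9 cathepsins and PSAP, and 5 of 7 V1 genes were called more negative. A total of 8 members (17.8%) were lower at 12 hours and higher at 24 hours, namely ATP6AP1, CTSA, CTSZ, HEXA, IDUA, NEU1, NAGLU and CD63, a pattern held by 2.88% of all genes. This set rests on the 12-hour arrays: with the bioB and bioC class term CD63 alone held the pattern, against 3.11% of all genes, and the other 7 were higher at 24 hours without a call at 12 hours. Without HFM replicate 1 of 12 hours 16 members held it, against 5.32% of all genes, and with centred arrays 14 did, against 9.03%. The reverse pattern was held by ATP6V1C1, ATP6V1D and ATP6V1E1, or 6.67% of members, against 9.19% of all genes, and with centred arrays by ATP6V1C1 alone, against 5.86%. A further 14 members (31.1%) were higher at 24 hours without a call at 12 hours, against 6.60% of all genes, and 6 members did so once HFM replicate 1 of 12 hours was left out, against 6.29%.

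The members also changed over time within GM. From 12 to 24 hours in GM, 12 members rose and 27 fell (26.7% and 60.0%), against 29.4% and 40.5% of all genes (69.9% in either direction), and the groups did not overlap for 41 members, against 78.9% of all genes. Of the 24 cathepsins and other hydrolases, 17 fell and 4 rose. HEXA changed by -0.55 ± 0.07 (SE, adjusted p = 3.4e-05), MAN2B1 by -0.59 ± 0.09 (SE, adjusted p = 1.3e-04) and CTSH by -0.68 ± 0.11 (SE, adjusted p = 1.9e-04). In the opposite direction, ATP6V1C1 rose by 1.10 ± 0.05 (SE, adjusted p = 1.0e-08) and IDS by 0.73 ± 0.05 (SE, adjusted p = 1.7e-07). The rise of IDS depends on the probe set. Its other passing ones were called higher at 0.47 and 0.45, called lower at -0.38 and -0.30, or not called. The bioB and bioC class term cannot check these falls, since the GM arrays at 12 hours lie in 1 class and those at 24 hours in the other. It adds to each change in GM the distance of HFM replicate 1 at 12 hours from the 2 other HFM arrays. That distance had a median of 0.20 over the members and 0.12 over all genes. With it the median change of all genes in GM moved from -0.12 to -0.03.

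In HFM over the same interval, 17 members rose and 11 fell (37.8% and 24.4%), against 20.1% and 43.1% of all genes (63.1% in either direction), and the groups did not overlap for 29 members, against 65.9%. These counts depend on the scaling: with centred arrays 30 members rose and 5 fell, against 39.1% and 28.9% of all genes, and after the quantile normalization 25 rose and 10 fell, against 30.8% and 33.5%. Without replicate 1 of 12 hours 23 rose and 11 fell, against 21.8% and 42.6% of all genes. Among all genes called, 31.8% were higher as deposited, 57.5% with centred arrays and 47.9% after the quantile normalization. Of the 24 cathepsins and other hydrolases, 11 rose and 1 fell. Centred, the cathepsins had 6 that rose and 0 that fell, and the other hydrolases 13 and 1. As deposited, IDS rose by 0.97 ± 0.05 (SE, adjusted p = 1.3e-08), MANBA by 0.72 ± 0.09 (SE, adjusted p = 2.4e-05), ASAH1 by 0.62 ± 0.05 (SE, adjusted p = 7.5e-07) and NEU1 by 0.58 ± 0.08 (SE, adjusted p = 7.9e-05), whereas HEXA was at 0.01 ± 0.07 (SE, adjusted p = 0.95) and MAN2B1 at 0.07 ± 0.09 (SE, adjusted p = 0.53). With centred arrays these 2 were called higher as well, by 0.22 and 0.29. As deposited, 2 pump genes rose, ATP6V1A and ATP6AP2, and 9 fell. With centred arrays this balance turned: 6 rose (ATP6V0A1, ATP6V0A2, ATP6V1A, ATP6V1G1, ATP6AP1 and ATP6AP2) and 3 fell (ATP6V0B, ATP6V0D1 and ATP6V1H). These comparisons share arrays with those between the media: GM at 24 hours enters both the comparison of media at 24 hours and the change over time in GM, and HFM at 12 hours enters both the comparison at 12 hours and the change over time in HFM.

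Further lysosomal genes outside the 47 were counted in the same way. Of 29 tested hydrolases and activators, 21 were higher in HFM at 24 hours and 2 lower (72.4% and 6.90%), with a median of 0.31. Of all genes, 20.6% were higher and 37.5% lower at that time. GALC, which degrades galactosylceramide, changed by 1.01 and CTBS, a chitobiase, by 0.65, and the 2 lower genes were ACP2, an acid phosphatase (-0.39), and HGSNAT, an acetyltransferase of heparan sulfate breakdown (-0.33). At 12 hours 5 were higher and 8 lower (17.2% and 27.6%), against 28.9% and 33.0% of all genes. Of 11 other pump subunits and assembly factors, 3 were higher and 4 lower at 24 hours (27.3% and 36.4%), near the shares of all genes. The higher ones included TCIRG1, a further a subunit (0.42). Other membrane proteins and transporters divided into 10 higher and 9 lower of 31 at 24 hours (32.3% and 29.0%). NPC1, the cholesterol exporter, was at 0.62 and CTNS, the cystine exporter, at -0.63.

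Of 21 tested genes that sort enzymes to the lysosome, 3 were higher and 11 lower at 24 hours (14.3% and 52.4%), against 20.6% and 37.5% of all genes, and their difference from the enzymes was not tested. The receptors of the mannose 6-phosphate tag divided, with IGF2R at 0.45 and M6PR at -0.67, and GNPTAB, which makes the tag, was at 0.41. Of the 4 transcription factors, TFE3, MITF and TFEB activate lysosomal genes and ZKSCAN3 represses them. The activators divided at 24 hours, with TFE3 (0.44) and MITF (0.34) higher and TFEB (-0.45) lower, and ZKSCAN3 (-0.76) was lower. At 12 hours MITF (0.36) was higher, and TFE3 (-0.25), TFEB (-0.30) and ZKSCAN3 (-0.53) were lower. These values concern mRNA alone.

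Several probe sets for a gene gave a check of these calls. Of the 37 members called at 24 hours, 18 had another probe set that passed the filter, 13 of these had one called in the same direction (with p adjusted over all probe sets tested), and 0 had one called in the opposite direction. The 5 probe sets of CTSB were all higher at 24 hours, by 0.40, 0.58, 0.97, 1.05 and 1.17, and the one that stands for the gene had the smallest change. The 4 of LAMP1 changed by 0.35 to 0.51 and the 4 of LAMP2 by 0.37 to 0.71. Of the 7 of IDS, 5 were called higher at 24 hours, by 0.49 to 1.04, and 2 were not called.

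At 12 hours, 13 of the 27 called members had another passing probe set, 11 had one called the same way, and ATP6V0A2 and IDS had one called the opposite way, at 0.80 and -0.17. For ATP6V1C1, 3 of 4 probe sets were called higher at 12 hours and all 4 were called lower at 24 hours. For SCARB2, 2 of 4 were called higher at 12 hours and 3 at 24 hours. Without the probe set types that can match several transcripts, 30 members remained measurable, of which 16 were higher and 5 lower at 24 hours. Of all genes, 22.1% were then higher and 36.6% lower.

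**Figure D4:**
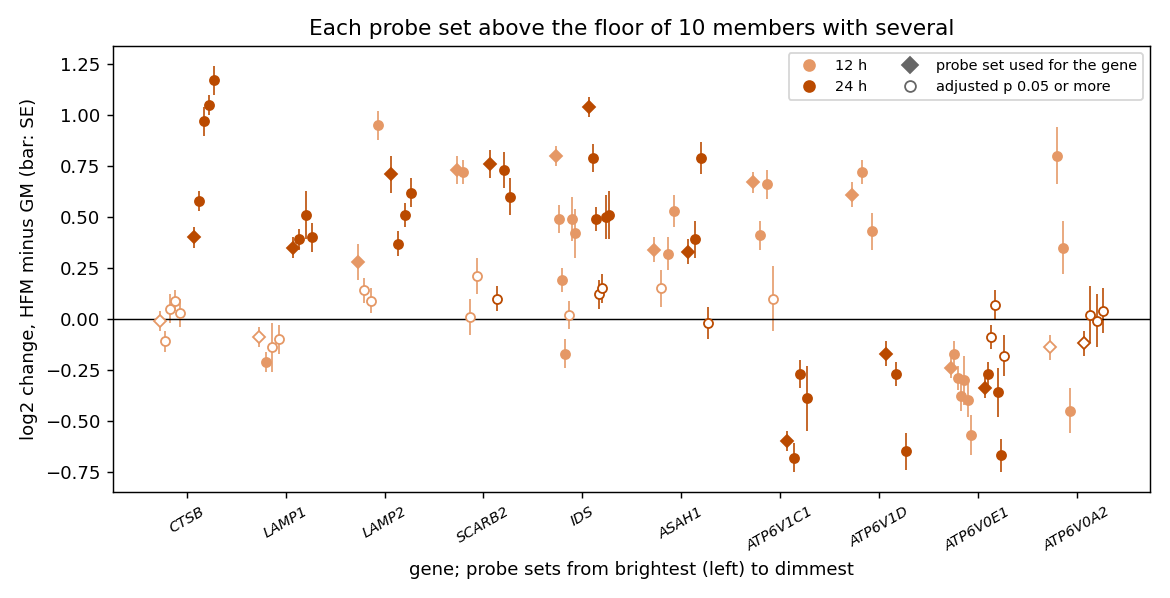
Log2 change of HFM against GM (vertical axis, bars are SE) for each passing probe set of 10 members, from the brightest to the dimmest within a gene, at 12 hours (light) and 24 hours (dark), with a diamond for the probe set that stands for the gene and open symbols for an adjusted p of 0.05 or more over all probe sets. The 5 probe sets of CTSB rise from 0.40 to 1.17 at 24 hours, the 4 of ATP6V1C1 lie above 0 at 12 and below 0 at 24 hours, and those of ATP6V0A2 lie on both sides of 0 at 12 hours.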

How the data were processed

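Values of 54675 probe sets on 12 arrays were used as the authors deposited them, on the log2 scale and made with GCRMA, per the submitters' processing notes; its version is not given there. Symbols came from the platform annotation: 41097 probe sets had 1 symbol, 1801 several and 11777 none, and only the first were used. The number of arrays limits the precision.

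A model with 4 group means was fitted to 13130 genes with limma 3.58.1 in R 4.3.3 (lmFit, eBayes) and tested on simulated data. The members and lists were chosen with earlier results of these data known. Array values are given for the called members of each class with the 3 largest rises and 3 largest falls at 24 hours, the 2 largest of each at 12 hours and the 2 largest differences between times, and for those with another probe set called the opposite way. Alternatives were other scalings, filters, probe set rules, moderation and samples, a replicate block, hybridisation control terms and leaving out each array. The labels do not say what a replicate number shares, and the main model does not pair arrays by it. Correlations of deviations between arrays of the same number ran from -0.17 to 0.42. They were not set against arrays of different numbers, so they do not settle whether arrays are paired.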

Additional observations from a re-analysis of the deposited data

Results flagged for a closer look

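The change with medium differed between 12 and 24 hours for 31 members by the interaction term of the model (limma, Benjamini-Hochberg adjusted p under 0.05 over all genes). The values below are the change at 24 hours minus the change at 12 hours, in log2 units, each with 3 arrays per group. In the proton pump the term was -1.28 for ATP6V1C1, -0.78 for ATP6V1D, -0.63 for ATP6V1E1, -0.45 for ATP6V1H and -0.29 for ATP6V1G1, all in V1, and 0.29 for ATP6V0C and 0.38 for ATP6AP1. Among cathepsins it was 0.99 for CTSH, 0.83 for CTSA, 0.71 for CTSZ, 0.60 for CTSD, 0.41 for CTSB, 0.37 for CTSF and -0.70 for CTSK. Among enzymes of sugar chains it was 0.92 for NEU1, 0.68 for GAA, 0.66 for MAN2B1, 0.62 for MANBA, 0.58 for IDUA, 0.55 for HEXA, 0.51 for NAGLU, 0.42 for GUSB and 0.27 for GLA. Among the other hydrolases it was 0.80 for SMPD1, 0.64 for TPP1, 0.63 for ARSA and 0.24 for IDS. It was 0.87 for PSAP, 0.44 for LAMP1, 0.43 for LAMP2 and 0.39 for CD63. For LAMP2 another probe set was called in the opposite direction, at -0.33.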

How the results depend on the processing

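With a 1.5-fold minimum, 5 members were higher and 1 lower at 12 hours (9.87% and 4.41% of all genes). At 24 hours 6 were higher and 4 lower (7.02% and 15.0% of all genes). With that minimum 16 were called for the difference between times, 8 over time in GM and 10 in HFM. The share of all genes is not given for these last counts, so they are not read as a result about the members. Without probe set types that can match several transcripts, 30 members were left, of which 9 were lower at 12 hours (30.1% of all genes). At 24 hours 16 were higher and 5 lower (22.1% and 36.6% of all genes). The difference between times was called for 20 members (18.8% of all genes more positive and 34.4% more negative). Over time 24 were called in GM and 18 in HFM. Of all genes, 31.6% rose and 36.1% fell in GM, and 21.5% and 40.9% in HFM. With the bioB and bioC control class in the model, added after seeing the data and resting on 1 HFM array at 12 hours, 6 were lower at 12 hours (27.2% of all genes). That term left 20 called over time in GM, where 29.7% of all genes rose and 26.5% fell. The first of these counts sets HFM replicate 1 alone against GM. The second shifts each change in GM by the distance of that array from the other HFM arrays, so neither is a check. Without HFM replicate 1 at 12 hours, 25 were lower at that time, against 38.2% of all genes. Leaving out each array in turn gave 10 to 12 higher and 11 to 25 lower at 12 hours, 24 to 29 higher and 7 to 10 lower at 24 hours, 30 to 36 for the difference between times, 35 to 41 over time in GM and 26 to 34 in HFM. A replicate block gave 11, 16, 28, 9, 32, 39 and 31 in the same order and moved no count by over 1.5 times. Of all genes, leaving out each array gave 26.4% to 30.1% higher and 28.1% to 38.2% lower at 12 hours. At 24 hours it gave 18.7% to 24.3% and 33.9% to 42.2%. The block gave 29.3% and 33.7% of all genes at 12 hours, and 21.1% and 38.0% at 24 hours. Among called values of named members, the direction reversed for ATP6V0A2 at 12 hours with the mean of its probe sets (0.12). It also did so without the types that match several transcripts (0.80), and for ATP6V1D at 24 hours with centred arrays (0.01). Of 1216 values of named members under alternatives, 1147 kept their call or lack of one, 47 lost and 19 gained a call, and 3 called values reversed. Sign changes of values that were not called were not counted as reversals. An example is CTSF at 24 hours, at -0.06 as deposited and 0.12 with centred arrays. The fit on only the compared groups gives no value for the difference between times. The planned control class set apart 1 array, GM at 24 hours replicate 2.

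The 3 arrays per group limit the precision. The brightest probe set of CTSB had a smaller change at 24 hours than its 4 dimmer ones, and the cause was not tested.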
